A study of Mus musculus with 8 samples.

Results

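Embryos at the 2-cell stage that had been given mRNA for the spliceosomal Sm proteins Snrpb, Snrpd2 or both were compared with embryos given mRNA for the fluorescent protein mCherry. The comparison rests on 4 of the 8 libraries of the series, and on the 13620 genes, of 21553 with a read count, that had 50 or more reads in at least 1 of these 4 libraries. Snrpb and Snrpd2 were left out, since their reads include the injected mRNA. At the limit, 44 genes had exactly 50 reads in their highest library and were kept, and 46 genes had 49 and were not.

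All embryos, controls included, came from B6CBA F1 crosses and had been microinjected as 1-cell embryos. PolyA RNA of whole embryos was collected 24 h after injection from a pool of 40 embryos gathered over 3 experiments, and each pool gave 1 library. There were 3 Sm-injected libraries, which differ in what was injected (Snrpb alone, Snrpd2 alone, both), and 1 mCherry library. The amount of mRNA injected and the protein made from it were not given in the sources used here. Values are listed below in the order Snrpb, Snrpd2, both, mCherry.

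Sm proteins close into rings on most of the small nuclear RNAs that remove introns, and without the ring these particles are neither matured in the cytoplasm nor returned to the nucleus to splice. Mouse embryos begin to transcribe their own genome in earnest at the 2-cell stage, while mRNA stored in the oocyte is removed. The title of the series ties splicing and the DNA damage response to this onset of transcription.

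Depth was close between libraries, from 39492734 to 44648717 reads, a ratio of 1.13. The injected mRNA was present where the labels place it: Snrpb had 76854, 1300, 38483 and 823 reads, and Snrpd2 had 54, 59894, 47785 and 115 reads. Markers of the 2-cell stage were present, as 7 of 10 had a row in the tables and all 7 had reads in all 4 libraries, Zscan4d with 879, 939, 797 and 895 reads among them. A single gene, Ccdc82, took 5033166 to 6081588 reads per library. In pooled whole embryos, fewer cells of a kind and less RNA per cell cannot be told apart.

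No gene differed between the Sm-injected and the mCherry libraries at an adjusted p under 0.05 in edgeR's quasi-likelihood test, which called 0% of 13620 genes. The smallest adjusted p was 0.9999. At an unadjusted p under 0.05, 255 genes (1.87%) were higher and 142 genes (1.04%) lower in the injected libraries, and with library totals in place of the trimmed-mean scaling these counts were 315 and 90. The test has 2 residual degrees of freedom and assumes that the single mCherry pool varies as much as the 3 pools with different injections. For a single gene, an exact permutation of 3 libraries against 1 cannot give a p below 0.25. DESeq2 on the same counts called 4 genes higher and 0 lower, and 3 of the 4 are described below.

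The injected libraries differed among themselves about as much as from the control. Counting genes at least 2-fold apart, with the 95% interval of the ratio (exact conditional binomial, counting error only) on one side of 1, 573 genes separated the Snrpb library from mCherry, 575 the Snrpd2 library and 459 the library with both. Between injected libraries the counts were 803 for Snrpb against Snrpd2, 554 for Snrpd2 against both and 436 for Snrpb against both. The pair that differed most was thus a pair of injected libraries. All 3 injected libraries lay above mCherry for 3121 genes (22.9%) and below it for 3147 genes (23.1%), and for the other 7352 genes the groups overlapped. With library totals the split was 3897 above and 2329 below.

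**Figure D1:**
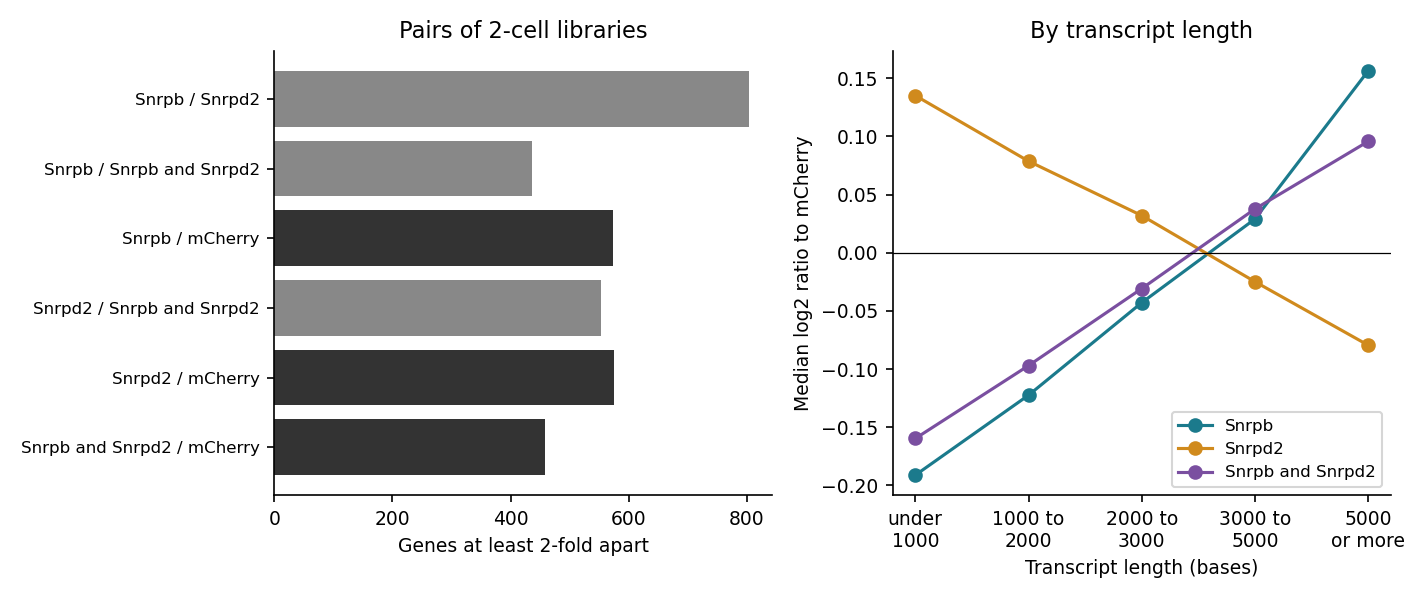
Left, genes at least 2-fold apart in each pair of 2-cell libraries (dark bars, pairs with mCherry; grey bars, pairs of injected libraries). Right, median log2 ratio to mCherry over genes of each transcript length (bases), one line per injected library. The Snrpb and Snrpd2 pair had the most genes apart (803), and the length trend of the Snrpd2 library ran opposite to that of the other two.

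Named genes follow a rule that takes the 12 higher and the 12 lower genes with the smallest unadjusted p among genes with all 3 injected libraries on one side of mCherry. All 24 missed the threshold of the test, and every gene named below had an edgeR adjusted p of 0.9999 or more in this fit. Fold changes come from the read counts, and cRPKM is the authors' mappability-corrected read density, scaled for length and depth.

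Ptpru, a receptor-type tyrosine phosphatase, ranked first, with 57, 59 and 50 reads after Sm injection and 1 read with mCherry. The injected libraries were close to each other, far above the single control read, and their mean level was 0.303 ± 0.0153 cRPKM (SD, n = 3). The ratios to mCherry were 59.2 (95% interval 10.2 to 2381), 53.1 (9.17 to 2133) and 52.6 (9.02 to 2119), and the fitted log2 fold change was 5.62 (SE 1.01). The same gene had 44, 53, 53 and 15 reads in the 1-cell libraries. Rassf2, a Ras-association domain protein, had 171, 58, 119 and 6 reads (19.7-fold more on average, log2 4.27, SE 0.93). The Snrpd2 library was the lowest of the 3 injected ones for this gene.

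Plec, which codes for the cytoskeletal linker plectin, had 273, 230, 254 and 68 reads (3.72-fold, log2 1.89, SE 0.38). Cxadr, a cell adhesion protein of tight junctions, had 756, 918, 651 and 349 reads (2.19-fold, log2 1.13, SE 0.24). E2f7, an atypical E2F that represses cell cycle genes, had 640, 1029, 645 and 351 reads (2.16-fold). These 3 genes were the best covered of those named here. That their injected libraries did not overlap with mCherry follows from the rule that named them. Tlx2, a homeobox factor, had 175, 224, 154 and 60 reads. Sfmbt2, a Polycomb-associated protein, had 131, 77, 85 and 12 reads, and Ubr1, a ubiquitin ligase of the N-degron pathway, had 126, 118, 132 and 31. Ccdc92b (147, 76, 79 and 8 reads), Epn3 (an epsin of endocytosis, 131, 98, 75 and 15) and Pcdhb2 (a protocadherin, 46, 67, 73 and 6) followed the same pattern. Ccdc92b and Pcdhb2 had 0 reads in every 1-cell library. Among the 4 genes that DESeq2 called were Rassf2 (DESeq2 adjusted p = 0.0151), Plec (0.024) and Ccdc92b (0.024).

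On the other side, the leading genes included both subunits of inhibin B. Inha, the inhibin alpha subunit, had 2, 6, 0 and 55 reads, so that the control library held nearly all of its reads (log2 −4.34, SE 0.97). Inhbb, the beta B subunit of inhibin and activin, had 46, 19, 8 and 152 reads (log2 −2.63, SE 0.73). The mCherry library was highest for both. In the 1-cell libraries Inha had 113, 54, 154 and 42 reads, where the control was the lowest. These genes are expressed by granulosa cells, and other markers of those cells are given further below. Without the Snrpb library, the highest of the 3 injected ones for Inhbb, this gene passed edgeR's threshold (log2 −3.55, adjusted p = 0.031), the only gene to do so in any edgeR fit with a library left out.

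Bmper, a secreted regulator of bone morphogenetic proteins, had 22, 27, 49 and 169 reads, 5.13-fold fewer on average after Sm injection. Muc3, a mucin, had 88, 73, 57 and 225 reads (3.11-fold fewer), and Smim10l2a had 23, 40, 15 and 116 (4.6-fold fewer). Lrrc71 had 39, 26, 31 and 112 reads. In each of these the mCherry library held more than 2-fold the scaled reads of every injected library.

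Genes with more reads differed by less. Degs1, the dihydroceramide desaturase, had 227, 251, 227 and 313 cRPKM (18010, 21923, 17579 and 26090 reads), 1.37-fold less after injection (log2 −0.46, SE 0.12). Asf1b, a histone chaperone that feeds chromatin assembly at replication, had 163, 175, 182 and 235 cRPKM (1.4-fold less), and Bpgm, bisphosphoglycerate mutase, had 176, 211, 199 and 258 (1.36-fold less). In all 3 the injected libraries lay below the control, which the naming rule requires. Mid1ip1 (664, 762, 774 and 1254 reads), Ptpro (a receptor tyrosine phosphatase, 1396, 1422, 1388 and 2158) and Olfr976 (an olfactory receptor, 1680, 2568, 2089 and 3295) differed by 1.54- to 1.72-fold. At the 1-cell stage, against another mCherry library, 11 of the 12 lower genes had a fitted log2 fold change above 0. Asf1b had 0.62 and Bpgm 0.78, and only Olfr976 was below 0 at both stages. Of all genes with 10 or more reads in a 1-cell library, 48.1% lay above 0 there. Of genes with a mean of 10000 or more 2-cell reads, as Degs1, Asf1b and Bpgm have, 73.2% did.

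**Figure D2:**
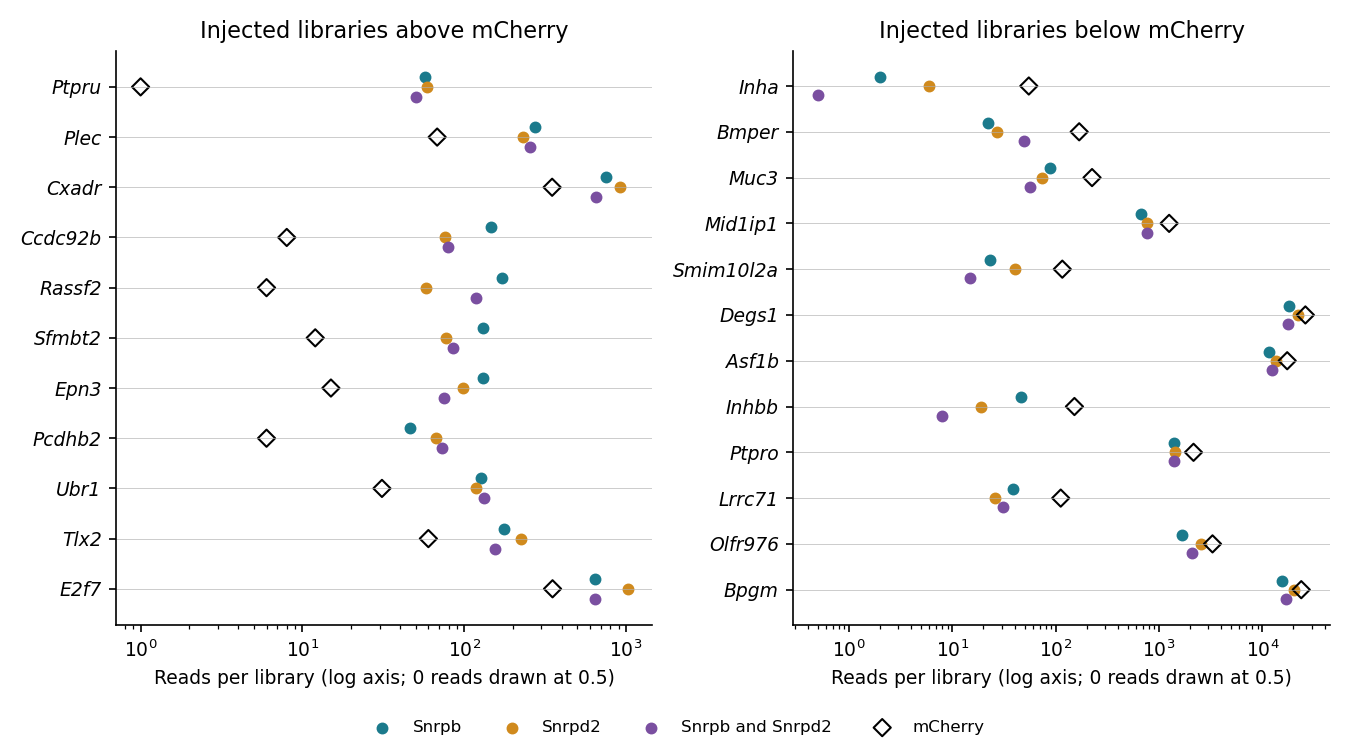
Reads per library (log axis, 0 reads drawn at 0.5) of 11 of the 12 higher genes (left) and of the 12 lower genes (right) with the smallest unadjusted p; filled points are the 3 injected libraries and open diamonds the mCherry library. Ptpru (50 to 59 against 1) and Inha (0 to 6 against 55) stand farthest from the control, and no gene passed the threshold of edgeR's test.

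The promoters of 4 of these genes are shown to let a reader compare the leading genes of either direction: Ptpru and Rassf2 from the higher and Inha and Bmper from the lower genes, taken from the leading genes with an entry in the RefSeq promoter table (GRCm38.p6, 250 bases before to 50 after the start of transcription, 5′ to 3′ on the gene's strand). Capitals mark matches, on either strand, to 3 motifs, none of which contains another: TATAAA of the TATA box, the CCAAT box by its own letters, and GGGCGG of the GC box. Ptpru (ENSMUSG00000028909) lies at chr4:131838229-131838528 (minus strand), Rassf2 (ENSMUSG00000027339) at chr2:132030275-132030574 (minus strand), Inha (ENSMUSG00000032968) at chr1:75507359-75507658 (plus strand) and Bmper (ENSMUSG00000031963) at chr9:23222826-23223125 (plus strand).
Ptpru: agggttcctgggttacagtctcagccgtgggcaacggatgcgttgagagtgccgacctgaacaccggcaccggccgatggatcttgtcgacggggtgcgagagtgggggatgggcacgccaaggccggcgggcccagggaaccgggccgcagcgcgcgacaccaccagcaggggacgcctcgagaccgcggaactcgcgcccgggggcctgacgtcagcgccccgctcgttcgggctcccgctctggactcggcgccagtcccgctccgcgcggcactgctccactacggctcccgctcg
Rassf2: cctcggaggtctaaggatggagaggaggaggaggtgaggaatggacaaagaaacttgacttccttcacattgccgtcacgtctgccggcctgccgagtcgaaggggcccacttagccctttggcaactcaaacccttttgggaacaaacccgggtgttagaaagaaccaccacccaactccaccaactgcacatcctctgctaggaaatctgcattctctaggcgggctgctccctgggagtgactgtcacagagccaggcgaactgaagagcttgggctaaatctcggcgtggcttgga
Inha: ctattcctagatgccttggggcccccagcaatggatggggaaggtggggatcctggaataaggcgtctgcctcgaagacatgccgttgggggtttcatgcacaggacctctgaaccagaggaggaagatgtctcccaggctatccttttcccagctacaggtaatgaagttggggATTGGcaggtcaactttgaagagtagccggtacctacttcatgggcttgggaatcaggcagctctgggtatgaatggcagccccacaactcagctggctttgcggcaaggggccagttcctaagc
Bmper: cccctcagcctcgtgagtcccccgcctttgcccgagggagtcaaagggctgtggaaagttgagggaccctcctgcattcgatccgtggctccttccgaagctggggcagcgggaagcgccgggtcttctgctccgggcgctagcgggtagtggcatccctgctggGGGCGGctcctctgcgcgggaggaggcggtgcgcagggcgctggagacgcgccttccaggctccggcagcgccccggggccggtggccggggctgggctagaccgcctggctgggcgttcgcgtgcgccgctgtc
Ptpru and Rassf2 held none of the 3 motifs. Inha held CCAAT once, on the other strand (printed as its reverse complement), starting at −75 from the start of transcription, and Bmper held GGGCGG once, starting at −85. The Ptpru window had 40 CpG and the Bmper window 31, against 11 in Rassf2 and 5 in Inha, so that the members of neither pair were alike. Over the 13532 promoters of the 10598 tested genes with an entry, 7.57% held TATAAA, 38.2% CCAAT and 60.2% GGGCGG, and the median window had 20 CpG.

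The genes at least 2-fold apart in every injected library numbered 82 higher (0.602% of those tested) and 18 lower (0.132%), each with the interval of all 3 ratios on one side of 1. These were genes of low level. Their mean over the 4 libraries was 45.9 reads at the median of the higher set and 39.6 at that of the lower set, against 579 for all genes tested, and 72 of the 82 and 17 of the 18 had a mean under 100 reads. In 75 of the 82 the mCherry library had fewer than 50 reads. The rule on reads gives the injected group 3 libraries in which a gene can reach 50 reads and the control 1. With the 50 reads asked of mCherry or of the mean of the injected libraries, a rule chosen after the counts were seen, 52 genes were higher and 18 lower.

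Named only for their place in these sets, and so chosen after their values were seen, a few of the higher genes follow. Fgf3, a fibroblast growth factor, had 244, 327, 261 and 121 reads, and Srms, a non-receptor tyrosine kinase, had 198, 231, 191 and 98. Itgal, an integrin alpha chain, had 109, 141, 139 and 44 reads. All 3 were covered by more than 40 reads in every library. That no injected library overlapped with the control follows from the rule of the set. Fewer reads lay behind Podxl, the sialomucin podocalyxin (74, 69, 97 and 18), and Ppargc1a, a coactivator of mitochondrial biogenesis (74, 63, 58 and 15). Plxna3, a semaphorin receptor, had 17, 53, 17 and 0 reads, at least 9.25-fold higher on average against a floor of 3 reads in the mCherry library. The lower set held, beside Inha, Inhbb, Bmper, Muc3, Smim10l2a and Lrrc71, Anxa1, an anti-inflammatory annexin (21, 15, 19 and 63 reads), Fermt3, a kindlin (59, 35, 38 and 130), and Sez6 (59, 51, 53 and 130).

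**Figure D3:**
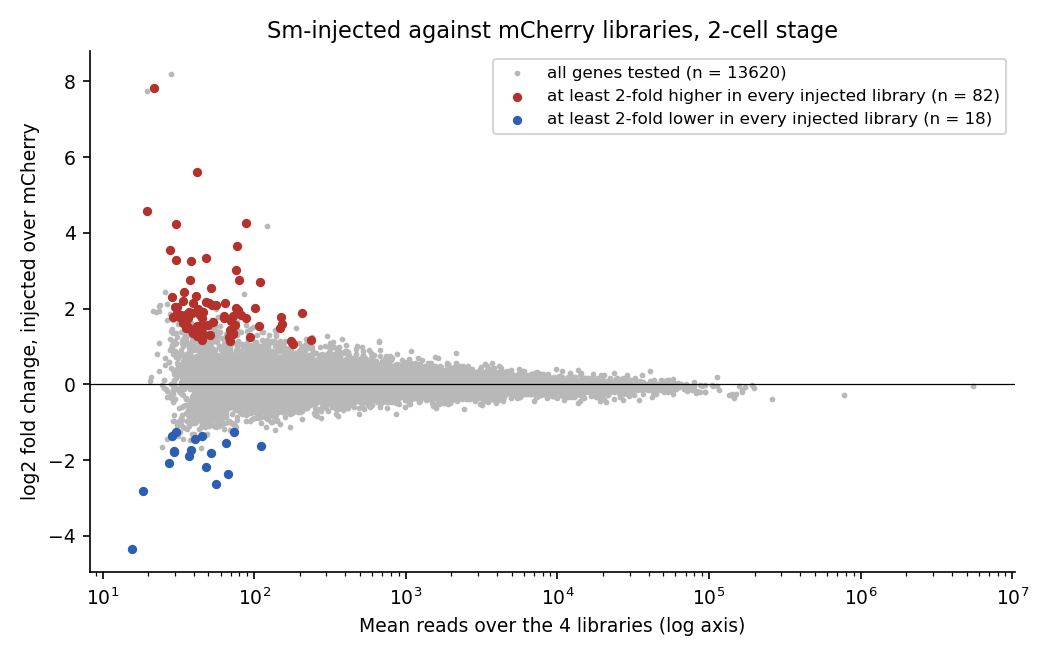
Fitted log2 fold change of injected over mCherry libraries against the mean reads over the 4 libraries (log axis) for the 13620 genes tested; red and blue points are the 82 genes at least 2-fold higher and the 18 at least 2-fold lower in every injected library. The coloured points lie at low read counts, with means from 15.8 to 238 reads.

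The promoters of the 82 higher genes held CCAAT in 19.3% and GGGCGG in 47.0% of 83 windows from 63 genes, against the 38.2% and 60.2% over all tested genes given above, and TATAAA in 9.64%. Of the 15 windows of the 18 lower genes, 6.67% held TATAAA, 33.3% CCAAT and 40% GGGCGG. The median CpG count was 15 in the higher and 6 in the lower set. These shares describe the sets and were not tested.

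The most abundant transcripts lay below mCherry more often than above it. Of the 19 genes with a mean of 100000 reads or more, 14 lay below mCherry in all 3 injected libraries and 0 above, with a median log2 fold change of −0.14. Of the 712 genes with 10000 to 100000 reads, 37.8% lay below and 5.62% above (median −0.046). From 2000 to 10000 reads 16.5% lay above and 26.7% below, and from 100 to 500 reads 26.8% and 20.8%. With library totals, 11 of the 19 genes lay below, and from 10000 to 100000 reads 26.8% lay below and 13.1% above. From 2000 to 10000 reads the balance turned with that scaling, to 26.3% above and 17.4% below, so that only the genes of 10000 reads or more lay below more often than above under both scalings. Genes with a mean under 50 reads (28.3% above, 20.3% below) entered only through a library with 50 reads, and 3 of the 4 libraries are injected ones, so their split says nothing of level. Genes with a mean of 10000 reads or more took 59.7%, 58.7% and 59.4% of the reads of member genes in the injected libraries and 60.4% in mCherry.

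Among the 19 most abundant transcripts are mRNAs known to be stored by the oocyte. They are named because of their level, after their values were seen. Zbed3, a zinc finger protein of the oocyte's subcortical maternal complex, had 9877, 9251, 9821 and 11320 cRPKM (log2 −0.27, SE 0.09). Bmp15, an oocyte growth factor, had 1092, 1029, 1154 and 1350 cRPKM (log2 −0.35). Spin1, a spindlin that binds chromatin, had 3038, 3045, 3046 and 3560, so that the 3 injected libraries nearly coincided below the control. Tcl1, which promotes AKT signalling, had 3815, 4789, 4360 and 5447 cRPKM (log2 −0.38, SE 0.11). Others of this level did not separate: Apela, a peptide hormone, had 2426, 2420, 2397 and 2389 cRPKM, and Mdm4, a p53 inhibitor, had 783, 659, 743 and 713, so that the control lay within or next to the range of the injected libraries.

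Genes that were all but absent at the 1-cell stage lay more often above mCherry. Of the 767 genes with fewer than 10 reads in each 1-cell library, 37.7% were above mCherry in all 3 injected 2-cell libraries and 12.9% below, against 22.03% and 23.7% of the other 12853 genes. Their median log2 ratios to mCherry were 0.22, 0.26 and 0.15 in the 3 injected libraries, and the median of the fit was 0.23, against 0.0064 for the others. The gap at equal 2-cell level was smallest under 100 reads, where 34.6% were above and 14.6% below, against 27.7% and 22.2% of genes already read at the 1-cell stage. From 100 to 500 reads, 42.2% were above and 11.1% below, against 25.7% and 21.5%, and from 500 to 2000 reads 43.2% and 6.82% of 44 genes, against 22.7% and 21.7%. Of the class, 2 genes had 2000 reads or more, with 0 on either side. The class holds 24 of the 82 genes 2-fold higher in every injected library. Under a mean of 100 reads, where most of the 82 lie, 21 of 451 genes of the class and 51 of the 1821 others were among them. Tlx2, Fgf3 and Srms belong to the class, with at most 5 reads in any 1-cell library. With library totals 41.9% of the class lay above and 10.7% below, against 27.8% and 17.5% of the others.

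**Figure D4:**
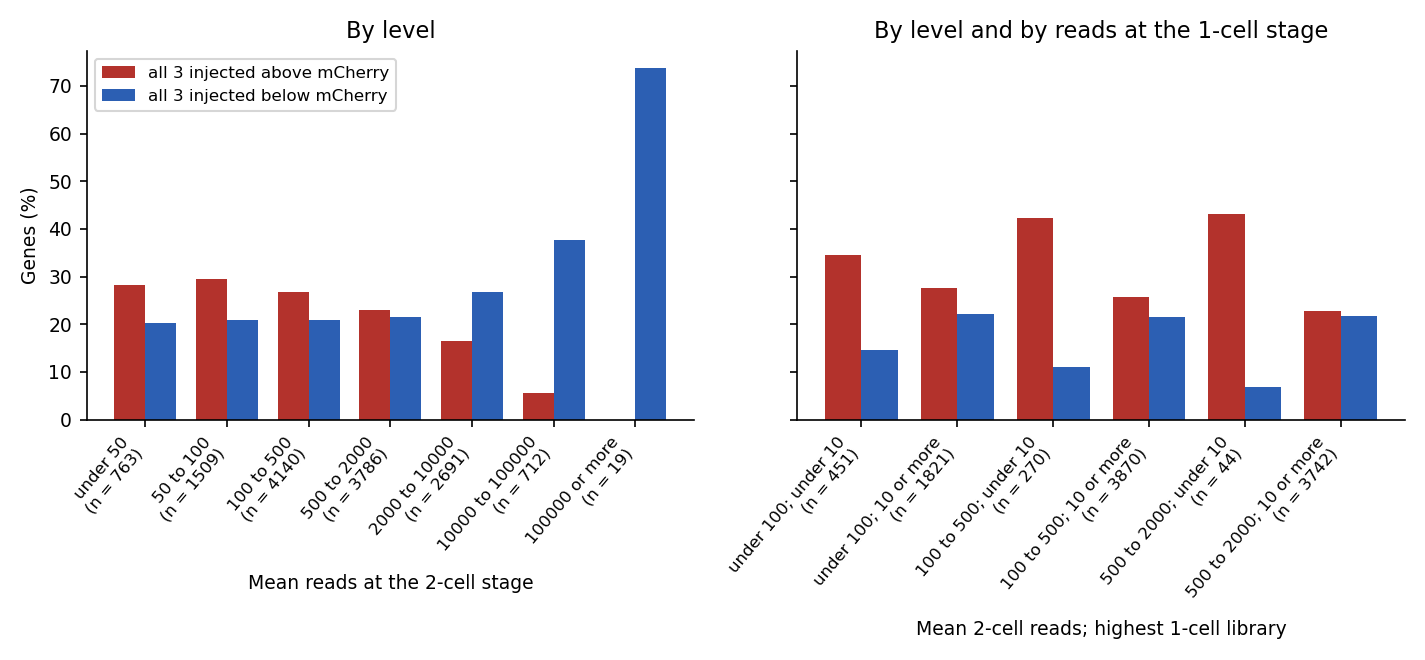
Percent of genes with all 3 injected libraries above (red) or below (blue) mCherry, by mean 2-cell reads (left) and, right, by mean 2-cell reads with genes split by whether their highest 1-cell library had under 10 reads. The blue bars are tallest at 10000 reads or more, with 14 of 19 genes at 100000 reads or more, and the red bars are taller for genes with under 10 reads at the 1-cell stage (42.2% against 25.7% from 100 to 500 reads).

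The machinery that the injected proteins belong to was next followed as lists of genes, and no list held a gene past the threshold of edgeR's test. Of the 5 other Sm ring genes with 50 reads, 2 lay above mCherry in all 3 injected libraries and 0 below. Over all genes the shares were 22.9% above and 23.1% below, or 28.6% and 17.1% with library totals. The median log2 fold change of the 5 was nevertheless −0.16, with medians of −0.34, 0.070 and −0.23 in the 3 injected libraries. Snrpd3 had 39.6, 56.7, 50.1 and 35.8 cRPKM (log2 0.40, SE 0.23), Snrpe had 196, 274, 215 and 247, and Snrpg had 498, 692, 462 and 629. For Snrpe, Snrpf and Snrpg the Snrpd2 library was the highest of the 4 and the control lay second, so that the groups overlapped. Among 36 genes for proteins specific to single snRNPs and for LSm proteins, 7 were above and 4 below in all 3 libraries (11 and 2 with library totals), with a median log2 fold change of 0.050 against 0.012 for all genes. Snrnp70, the U1-specific protein that contacts the 5′ splice site, had 10.3, 15.5, 14.0 and 7.96 cRPKM, the injected libraries 1.62-fold above mCherry on average (log2 0.69, SE 0.26). Prpf8, the central scaffold of the spliceosome, had 3.08, 1.88, 2.5 and 1.59.

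Genes of snRNP assembly and transport were balanced, with 4 of 19 above and 4 below. The shares of all genes were 22.9% above and 23.1% below, or 28.6% and 17.1% with library totals. Prmt5, the arginine methyltransferase that modifies Sm proteins, had 11.7, 12.2, 10.3 and 8.28 cRPKM, above mCherry in each injected library (log2 0.42, SE 0.20). Coprs, a partner of Prmt5, had 25.7, 26.3, 25.0 and 32.4. Tgs1, which further methylates the cap of small nuclear RNAs, had 22.4, 18.8, 26.9 and 30.1. Both Coprs and Tgs1 lay below mCherry in each injected library. The direction thus differed within the pathway. Of 20 SR protein genes 3 were above and 5 below (5 and 4 with library totals). Srsf3, an SR splicing factor, had 26.0, 27.3, 28.8 and 37.2 cRPKM (log2 −0.48, SE 0.17). The hnRNP genes had 6 of 26 above and 4 below (10 and 3 with library totals), with Hnrnpll at 11.4, 10.8, 11.4 and 8.02 cRPKM, and genes of nonsense-mediated decay and the exon junction complex had 5 of 19 above and 4 below (7 and 3), with Smg8 at 5.5, 5.55, 5.98 and 4.13.

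For the DNA damage response, the other theme of the series, the share of signalling genes on either side was near that of all genes (22.9% above, 23.1% below). Of 37 signalling genes, 10 (27.0%) were above mCherry in all 3 injected libraries and 7 (18.9%) below, with a median log2 fold change of −0.0093. With library totals 11 (29.7%) were above and 4 (10.8%) below, against 28.6% and 17.1% of all genes, and the median was 0.036. Chek1, the checkpoint kinase downstream of ATR, had 128, 126, 123 and 145 cRPKM (log2 −0.25, SE 0.12). Nbn, of the complex that senses double-strand breaks, had 4.66, 4.65, 4.74 and 3.32, and Atm, the kinase it recruits, had 3.1, 2.75, 3.35 and 2.29. Both lay above mCherry in each injected library, while Chek1 lay below. Trp53 itself had 17.4, 16.5, 14.5 and 12.9 cRPKM (log2 0.28, SE 0.21).

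Among 32 targets of p53, 5 were above and 6 below (6 and 5 with library totals). For this and the lists that follow, the shares of all genes were 22.9% above and 23.1% below. With library totals they were 28.6% and 17.1%. Ddit4, a stress-induced inhibitor of mTORC signalling, had 8.26, 11.6, 9.38 and 14.6 cRPKM, 1.55-fold lower on average after Sm injection (log2 −0.63, SE 0.23). Eda2r, a death-domain receptor, had 26, 64, 62 and 18 reads. The 34 genes of homologous recombination and Fanconi repair had 6 above and 6 below (11 and 4 with library totals), with Fanca at 1.81, 1.55, 1.73 and 1.2 cRPKM. The 44 genes of end joining, excision and mismatch repair had 13 above and 9 below, with the uracil glycosylase Smug1 at 11.5, 11.5, 13.9 and 16.9 cRPKM (log2 −0.50, SE 0.19). Of 47 cell cycle regulators, 8 were above and 14 below, with the checkpoint kinase Bub1 at 26.5, 24.4, 29.1 and 21.3 cRPKM, and with library totals 10 were above and 6 below. Of 26 apoptosis genes, 8 were above and 9 below (10 and 5 with library totals).

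**Figure D5:**
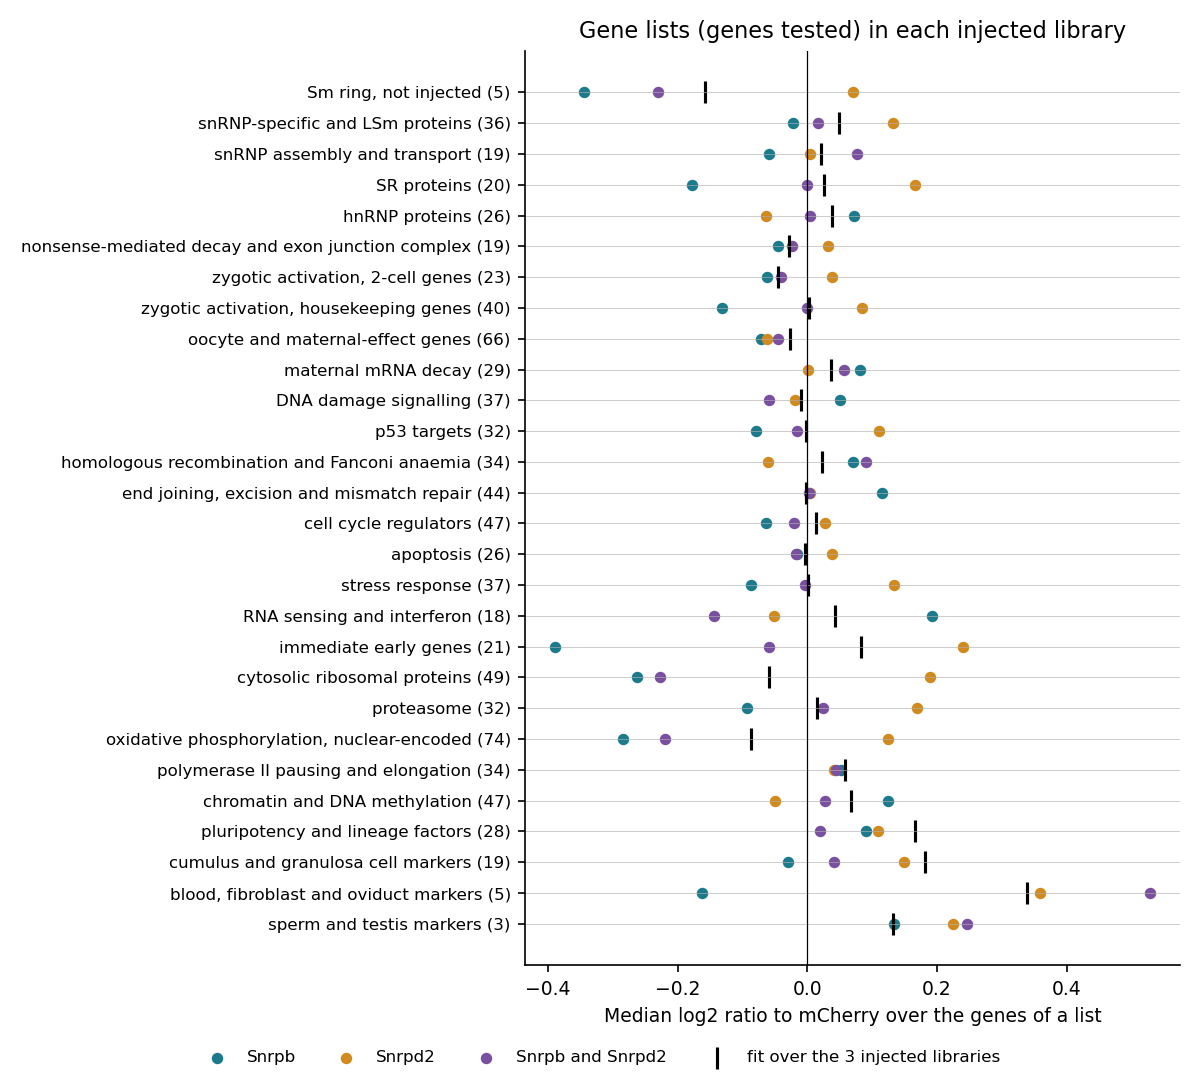
Median log2 ratio to mCherry over the genes of each list (number of genes tested in brackets), one point per injected library and a bar for the fit over all 3. Most medians of the fit lie within 0.1 of 0. In several lists, oxidative phosphorylation and ribosomal proteins among them, the Snrpd2 library lies on the other side of 0 from the other injected libraries.

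Genes of zygotic activation showed no common shift. The shares of all genes on either side were 22.9% above and 23.1% below, or 28.6% and 17.1% with library totals. Of 49 genes known for their burst at the 2-cell stage, 24 had a row in the tables and 23 were tested, with 4 above and 6 below mCherry in all 3 injected libraries (4 and 3 with library totals). The median log2 fold change was −0.045, and 0.00034 with library totals. Tdpoz3 had 14.8, 18.6, 13.4 and 11.2 cRPKM, and Zfp352 had 63.0, 55.5, 57.3 and 65.0. Many of these genes belong to families of near-identical copies, between which the authors' counting may divide reads. The 40 housekeeping genes that are transcribed at zygotic activation had 8 above and 8 below (9 and 4 with library totals), with Polr1a, the largest subunit of RNA polymerase I, at 1.39, 1.39, 1.86 and 1.08 cRPKM. Of 34 genes of polymerase II pausing and elongation, 8 were above and 5 below (12 and 4 with library totals), with Leo1, of the PAF complex, at 6.33, 6.13, 5.58 and 4.15.

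Oocyte and maternal-effect genes lay more often below the control, with 22 of 66 (33.3%) below in all 3 injected libraries and 4 (6.06%) above. Over all genes the shares were 23.1% and 22.9%. With library totals 16 (24.2%) lay below and 8 (12.1%) above, against 17.1% and 28.6% of all genes. Their median log2 fold change was −0.027, and 0.018 with library totals, so that the direction of the median rests on the scaling. Of the 66, 24 had a mean of 10000 reads or more, a level at which genes lay below more often than above. From 10000 to 100000 reads these shares were 37.8% below and 5.62% above. Gdf9, an oocyte growth factor, had 184, 245, 222 and 260 cRPKM. Among 29 genes of maternal mRNA decay, 9 were above and 7 below. Cnot1, the scaffold of the CCR4-NOT deadenylase, had 12.7, 9.67, 11.1 and 7.52 cRPKM (log2 0.53, SE 0.20), and Dcp1b, a decapping factor, had 83, 90, 66 and 33 reads.

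Of 28 pluripotency and lineage genes, 10 (35.7%) were above and 3 (10.7%) below, against 22.9% and 23.1% of all genes. With library totals 39.3% were above and 7.14% below, against 28.6% and 17.1% of all genes. Fgf4 had 3.7, 4.06, 4.97 and 2.93 cRPKM, and Gata6, a factor of primitive endoderm, had 5.1, 5.68, 4.97 and 3.84. Cdx2, which specifies trophectoderm, had 2.79, 2.83, 2.49 and 1.92, and Sall4 had 37.4, 38.8, 37.0 and 30.7. The injected libraries lay above mCherry for all 4, by 1.40-fold on average for Fgf4. The 3 genes below were the pluripotency factors Nanog (37, 40, 45 and 59 reads) and Tfcp2l1 (1.65, 1.85, 1.85 and 2.17 cRPKM), and Sox15 (log2 −0.14, SE 0.26). None of the 28 had an unadjusted p under 0.05. Gata6, Cdx2 and Sall4, like other genes here that are not first in their list, were chosen after their values were seen. Of 47 chromatin and DNA methylation genes, 15 were above and 11 below (18 and 8 with library totals), with Asf1b, given above, at the smallest p.

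In several lists the medians of the injected libraries lay on different sides of the control, the Sm ring list given above among them. The hnRNP list ran the other way, with medians of 0.073, −0.064 and 0.0035. Another 3 lists are described here. Oxidative phosphorylation genes had median log2 ratios to mCherry of −0.28 with Snrpb, 0.12 with Snrpd2 and −0.22 with both. Cytosolic ribosomal protein genes had −0.26, 0.19 and −0.23, and immediate early genes −0.39, 0.24 and −0.059. In each of these 3 lists, by its median, the Snrpd2 library lay above and the other 2 below the control. This leaves little common difference (medians of the fit −0.087, −0.059 and 0.082). Ndufv2, of respiratory complex I, had 637, 868, 611 and 928 reads, and the ribosomal protein gene Rpl28 had 29.3, 35.3, 27.9 and 35.9 cRPKM. The immediate early gene Junb had 17.2, 26.5, 15.9 and 27.4 cRPKM. These 3 genes, of smallest p in their lists, lay below mCherry in the Snrpd2 library too, unlike the medians of their lists.

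The same order appeared over transcript length for all genes. Genes with transcripts under 1000 bases had medians of −0.19, 0.14 and −0.16 in the 3 injected libraries, and those of 5000 bases or more had 0.16, −0.079 and 0.096. Over genes with 21 or more exons the medians were 0.16, −0.096 and 0.12. The Snrpd2 library thus ran opposite to the other two at both ends. Whether this follows the injected mRNA or the single pool that carried it cannot be told apart with 1 library per injection. Of 32 proteasome genes, 6 were above and 4 below (Psmb6, a catalytic subunit, with 2052, 2491, 1998 and 2751 reads). Of 37 stress response genes 8 were above and 4 below, with the heme oxygenase Hmox1 at 1300, 1842, 1472 and 1218 reads. Of 18 genes of RNA sensing and interferon 5 were above and 5 below, with the signal transducer Stat2 at 266, 322, 259 and 179 reads. The shares of all genes were 22.9% above and 23.1% below.

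In single injected libraries, the genes at least 2-fold apart from mCherry came to 347 higher (2.55%) and 226 lower (1.66%) with Snrpb, 368 higher (2.7%) and 207 lower (1.52%) with Snrpd2, and 281 higher (2.06%) and 178 lower (1.31%) with both. The 3 comparisons share the mCherry library. The Snrpb library was led by Rassf2, Ptpru and Gp1ba, a platelet glycoprotein with 53, 10, 15 and 1 reads, and on the lower side by Inha, Sectm1a (6, 85, 21 and 77 reads) and Xkr4 (8, 75, 65 and 88). Sectm1a and Xkr4 were low in the Snrpb library and near the control in the Snrpd2 library. The library with both was led by Rassf2, Ptpru and Tmem154 (24, 37, 59 and 2 reads), and on the lower side by Inha, Inhbb and Rab3c, a vesicle GTPase (14, 5, 3 and 52 reads).

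The leading genes of the Snrpd2 library included Hsd3b1 and Akr1c18. Hsd3b1, a steroid dehydrogenase, had 10, 466, 5 and 8 reads, a ratio of 52.4 (26.4 to 122) in that library alone. Akr1c18, the progesterone-degrading enzyme of the corpus luteum, had 0, 87, 27 and 0 reads. Lower there were Zfp112 (55, 0, 21 and 53 reads), Fshr, the receptor for follicle-stimulating hormone (33, 1, 29 and 53), and Lrrk1 (47, 3, 28 and 58). Plxna3, given above, was the third of the higher genes.

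Markers of other cells that could be carried along with embryos were followed in all 4 libraries. Over 10 cumulus and granulosa markers, all found, the summed level was 15.8, 20.5, 16.6 and 14.8 cRPKM, with 4 markers above and 3 below mCherry in every injected library. Cyp11a1, the enzyme that starts steroid synthesis, had 15, 296, 12 and 19 reads, and Star, the cholesterol carrier, had 32, 72, 13 and 10. The Snrpd2 library was the highest for both, as for Hsd3b1. Foxl2, a granulosa cell factor, had 4.74, 4.87, 5.4 and 3.34 cRPKM, and Fst, follistatin, had 0.75, 0.85, 0.89 and 1.52 (log2 −0.92, SE 0.39). The inhibin genes and Fst were thus low in injected libraries in which Foxl2 was high. In the 1-cell libraries Foxl2 had only 6, 3, 6 and 5 reads and Inhbb 2, 9, 4 and 3. Fst had 113, 118, 563 and 59 there, and Inha was read there too, as given above. In a wider list of 19 tested genes of these cells, which holds these markers too, 6 were above and 7 below (median log2 0.18), with Ptgs2 at 217, 96, 154 and 71 reads. Over 7 blood, fibroblast and oviduct markers, of which 6 were found, the sums were 4.17, 14.9, 7.39 and 5.22 cRPKM, mostly Lyz2, and Col3a1 was at 0 in all 4 libraries. Cd74, the invariant chain of antigen-presenting cells, had 368, 656, 314 and 190 reads (log2 1.19, SE 0.37). In the 1-cell libraries it had 12, 2, 0 and 0. The 5 sperm markers summed to 3.76, 4.5, 2.7 and 3.9 cRPKM, with Smcp at 0 in all 4 and 3 markers below mCherry in every injected library. These 3 had few reads: Prm1 2, 2, 1 and 3, Tnp1 13, 14, 8 and 14, and Akap4 0, 0, 4 and 8. In the wider lists, 2 of 5 tested blood, fibroblast and oviduct genes and 2 of 3 sperm and testis genes lay above mCherry and 0 below. Ldhc, with 198, 139, 127 and 107 reads, was among them. Over all genes 22.9% lay above and 23.1% below, and these lists are too short to set against those shares. The part of other cells in the differences of single genes was not tested.

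Whether the difference between injected and control libraries was particular to the 2-cell stage was asked in a fit of all 8 libraries. The 1-cell libraries, taken 5 h after injection, have the same injections and their own mCherry control. Of 14036 genes with 50 reads in any of the 8, 0% passed edgeR's adjusted threshold for a difference between the stages (smallest adjusted p = 0.352), and 1470 (10.5%) had an unadjusted p under 0.05. DESeq2 called 29 genes, 7 whose log2 fold change was higher in 2-cell embryos and 22 in which it was lower. Among these 22 were Tcl1 (DESeq2 difference −1.56, adjusted p = 0.0171), Inha (−5.80, adjusted p = 0.0171), Ptpro (−1.57) and Bpgm (−1.20), which are also among the genes described above. Tcl1 had a fitted log2 fold change of 1.21 at the 1-cell stage and −0.38 at the 2-cell stage.

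Both 2-fold sets chosen at the 2-cell stage lay mostly above the control at the 1-cell stage. This is the same direction for the higher genes and the opposite one for the lower genes. Of the 58 of the 82 higher genes with 10 or more reads in a 1-cell library, 42 (72.4%) had a 1-cell log2 fold change above 0, but so had 13 of 16 (81.3%) of the lower genes, against 48.1% of all genes. Of the 731 genes with a mean of 10000 reads or more at the 2-cell stage, 535 (73.2%) had a 1-cell log2 fold change above 0 (median 0.22). The share of all genes was not matched to the low read level of the 2-fold sets. These counts describe 2 stages with 1 control library each.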

How the data were processed

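For each library the authors deposited a table of raw read counts per gene, with no normalization, and of cRPKM, by its name an RPKM corrected for mappability. The submitters' processing notes name the mm9 build. The aligner and annotation were not given in the sources used here. cRPKM can be high on few reads where little of a gene is uniquely mappable, and near-identical genes may share reads.

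The 13620 genes with 50 or more reads in at least 1 of the 4 libraries were tested together with edgeR 4.0.16 (TMM scaling, quasi-likelihood test, Benjamini-Hochberg adjustment) in R 4.3.3. The 3 injected libraries formed 1 group against mCherry, so p-values measure the spread between pools that received different mRNAs, and the lone control is assumed to vary like them. The stage difference was an interaction term over all 8 libraries. DESeq2 1.42.0, limma 3.58.1 on log2(cRPKM + 0.1), other scalings, filters and left-out libraries were alternatives. Ratios between single libraries use TMM-scaled reads, with 95% intervals that cover counting error only. A fold against 0 reads uses a floor of 3 reads. Tables and figures were made with Python 3.11.15, pandas 2.3.3, SciPy 1.17.1 and matplotlib 3.10.9. Exons and transcript length came from GENCODE vM21 by Ensembl identifier (13445 of the 13620 genes matched).

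Named genes are the 12 with the smallest unadjusted p in each direction (no gene was called), the gene of smallest p in each list, and the 3 higher and 3 lower genes per injected library with the ratio bound farthest from 1. Others were chosen after their values were seen. The values of 2 genes that this rule names are not reported here. The members and the 28 lists were chosen with earlier results of these data known.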

Additional observations from a re-analysis of the deposited data

How the results depend on the processing

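No paired analysis was possible because each condition has 1 library and the labels give no number that ties an injected pool to a control pool. Leaving out mCherry leaves no comparison. Without the Snrpd2 library, far more genes had an unadjusted p under 0.05 in edgeR's test than with all 4 libraries, in both directions. The counts of calls that follow do not show how far the p-values moved. edgeR's calls stayed at 0 higher and 0 lower under the other scalings, filters and dispersion settings, in the fit of 8 libraries and with limma. DESeq2 called 4 higher genes, and 1 lower gene was called without the Snrpb library, so that leave-one-out gave 0 to 0 higher and 0 to 1 lower. The 82 genes 2-fold higher in every injected library became 246 at 1.5-fold, 30 at 3-fold, 172 with a minimum of 20 reads, 22 with 100 reads and 133 to 141 with an injected library left out. The 18 lower genes became 96, 6, 92, 7 and 45 to 52 in the same settings, the last because fewer libraries have to agree. With filters chosen after seeing the data, a mean of 50 reads left 36 higher and 6 lower, and 50 reads in mCherry or in the mean of the injected libraries left 52 higher. DESeq2 called 29 genes for the difference between stages, against 0 in edgeR. Of 775 alternative values for the 61 named genes, 0 reversed and 5 passed the threshold. The genes named by smallest p in each direction had all 3 injected libraries on one side of mCherry by rule. They could hardly reverse, so the count of 0 is no measure of how firm they are. Of 140 values for the 28 list medians 21 moved. Apart from fewer genes tested or libraries asked, the cause of these differences was not tested.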
